A study of Mus musculus with 18 samples.

Results

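Glycolysis was followed through 10 genes that encode its regulated first steps, 3 later enzymes and the main glucose transporters of the brain. They are the hexokinases Hk1 and Hk2, the phosphofructokinase subunits Pfkl, Pfkm and Pfkp, the aldolase Aldoc, the enolase Eno2, the lactate dehydrogenase subunit Ldhb, and the transporters Slc2a1 and Slc2a3. They were picked as a named pathway, with earlier results of these data known, and make up 10 of the 22180 genes with a transcript cluster of 1 gene symbol. The brightest such cluster stood for each gene, and all 10 genes were measured. Slc2a1 alone had a second cluster.

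Gene expression was measured with Affymetrix Mouse Gene 2.0 ST arrays, on which 1 log2 unit is a doubling of signal. Whole cerebella of P3 mice on the C57BL6/J background came from 3 Dot1l-cKO animals (Dot1l f/f, Atoh1 cre/+, in which exon 2 of Dot1l is deleted) and 3 controls with floxed Dot1l and no Cre (Atoh1 +/+). For 1 control the labels give both f/f and f/+. Atoh1 drives Cre in granule cell progenitors, so cells of the cKO cerebellum without a history of Atoh1 expression keep the gene. Cultures of wild-type NMRI mice held cerebellar granule neuron progenitors (CGNP) or cerebellar granule neurons (CGN), each with the DOT1L inhibitor SGC0946 or with its solvent DMSO. CGNP were kept with Sonic hedgehog (SHH) and CGN with fetal bovine serum (FBS). CGNP were taken at P7 and treated for 4 h, with 3 cultures per treatment, which carry the mouse numbers 29, 30 and both, so that by the labels n = 3 rests on a pair of mice. CGN were treated for 44 h, with 2 cultures per treatment. By the labels the CGN with DMSO came from P7 animals and had been 2 and 4 days in vitro. Those with SGC0946 had been 5 days in vitro, from a P7 animal, and 7 days, from a P9 animal. The treatment protocol and the methods give 1 schedule for all. If the labelled days are right, time in culture and treatment cannot be told apart in CGN. A further 2 CGN arrays carry contradictory treatment labels and entered no comparison.

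Glycolysis splits glucose into pyruvate and yields ATP without oxygen. Glucose enters through the transporters GLUT1, encoded by Slc2a1, and GLUT3, encoded by Slc2a3 and typical of neurons. Hexokinase traps it as glucose 6-phosphate and phosphofructokinase makes the committed step. Dividing granule cell progenitors are known for lactate-producing glycolysis, and Sonic hedgehog, the mitogen of these progenitors, is known to raise Hk2 in them. Postmitotic neurons rely more on HK1 and on oxidation of pyruvate and lactate in mitochondria.

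The promoter windows of Hk2 and Slc2a1 are shown because these were the members that lay at least 1 log2 unit lower in CGN than in CGNP in 1 of the treatment arms. Sequences are RefSeq windows of GRCm38.p6 that run from 250 bases before to 50 bases after a gene's start, and 9 of the 10 members had at least 1. Capitals mark ACGTG, the core of hypoxia response elements, or its reverse complement CACGT. The search covered both strands, and the E-box CACGTG contains the same letters. ACGTG occurred in 19.6% of all 32851 windows and in 6 of the 14 windows of members. The 6 windows belong to 5 genes, Hk1, Hk2, Pfkm, Aldoc and Slc2a1. CACGTG occurred in 7.15% of all windows and in 1 of the members' windows. The Hk2 window lies at chr6:82774405-82774704 on the minus strand, and its matches begin 226 and 52 bases before the start. The Slc2a1 window lies at chr4:119108495-119108794 on the plus strand, with 1 match 36 bases before the start.
Hk2: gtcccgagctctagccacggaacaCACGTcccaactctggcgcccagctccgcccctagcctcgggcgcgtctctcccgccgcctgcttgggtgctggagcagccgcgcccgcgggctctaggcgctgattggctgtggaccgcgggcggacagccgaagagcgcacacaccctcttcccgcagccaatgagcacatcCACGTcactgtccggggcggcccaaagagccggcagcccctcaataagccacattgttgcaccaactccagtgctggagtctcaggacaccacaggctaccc
Slc2a1: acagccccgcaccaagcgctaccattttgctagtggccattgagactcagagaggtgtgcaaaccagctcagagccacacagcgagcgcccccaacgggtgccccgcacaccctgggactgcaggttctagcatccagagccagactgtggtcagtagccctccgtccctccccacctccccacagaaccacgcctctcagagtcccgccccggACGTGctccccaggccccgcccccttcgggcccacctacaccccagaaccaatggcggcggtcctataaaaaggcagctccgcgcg

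A match describes letters only. Of a list of 12 measured genes known to respond to hypoxia, none passed the test in the comparisons that were tested. CGN minus CGNP, by which the windows were picked, was not among these. A hypoxia response was not tested there, and array values of that list are given below with the rest of the pathway.

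The targeted gene did not mark the cKO arrays. Dot1l read 9.05 to 9.13 in the controls and 9.01 to 9.43 in the cKO cerebella, a difference of 0.15 (SE 0.128). A cluster that sums probes along a transcript, in tissue where only part of the cells lose exon 2, is a weak check of that deletion. Array medians were 4.98 to 5.00 in cerebella, 4.73 to 4.80 in CGNP and 4.64 to 4.70 in CGN. The sorted values differed by 0.193 to 0.452 on average between arrays of different experiments and by at most 0.0763 within an experiment, as after separate normalization, so levels set across experiments are descriptions only. Atoh1, the transcription factor that defines granule progenitors, read 8.73 to 9.18 in control cerebella but 5.02 to 5.42 in CGNP with DMSO. The summed linear signal of 9 progenitor markers was 4840 to 5350 in those CGNP and 1450 to 1530 in CGN with DMSO. Of the 9, 8 had a lower mean in CGN, beside 73.9% of all genes, and Ccnd1 a higher one, by 0.11 log2 units. Ccnd2, a cyclin of these progenitors and part of that sum, had the largest difference of the 9, at -2.86. Gli1 was dim in both, at 4.29 to 4.74 in CGNP and 4.24 to 4.29 in CGN. Of 10 granule neuron markers, 7 were higher and 3 lower in CGN, among them Rbfox3, which encodes NeuN.

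**Figure D1:**
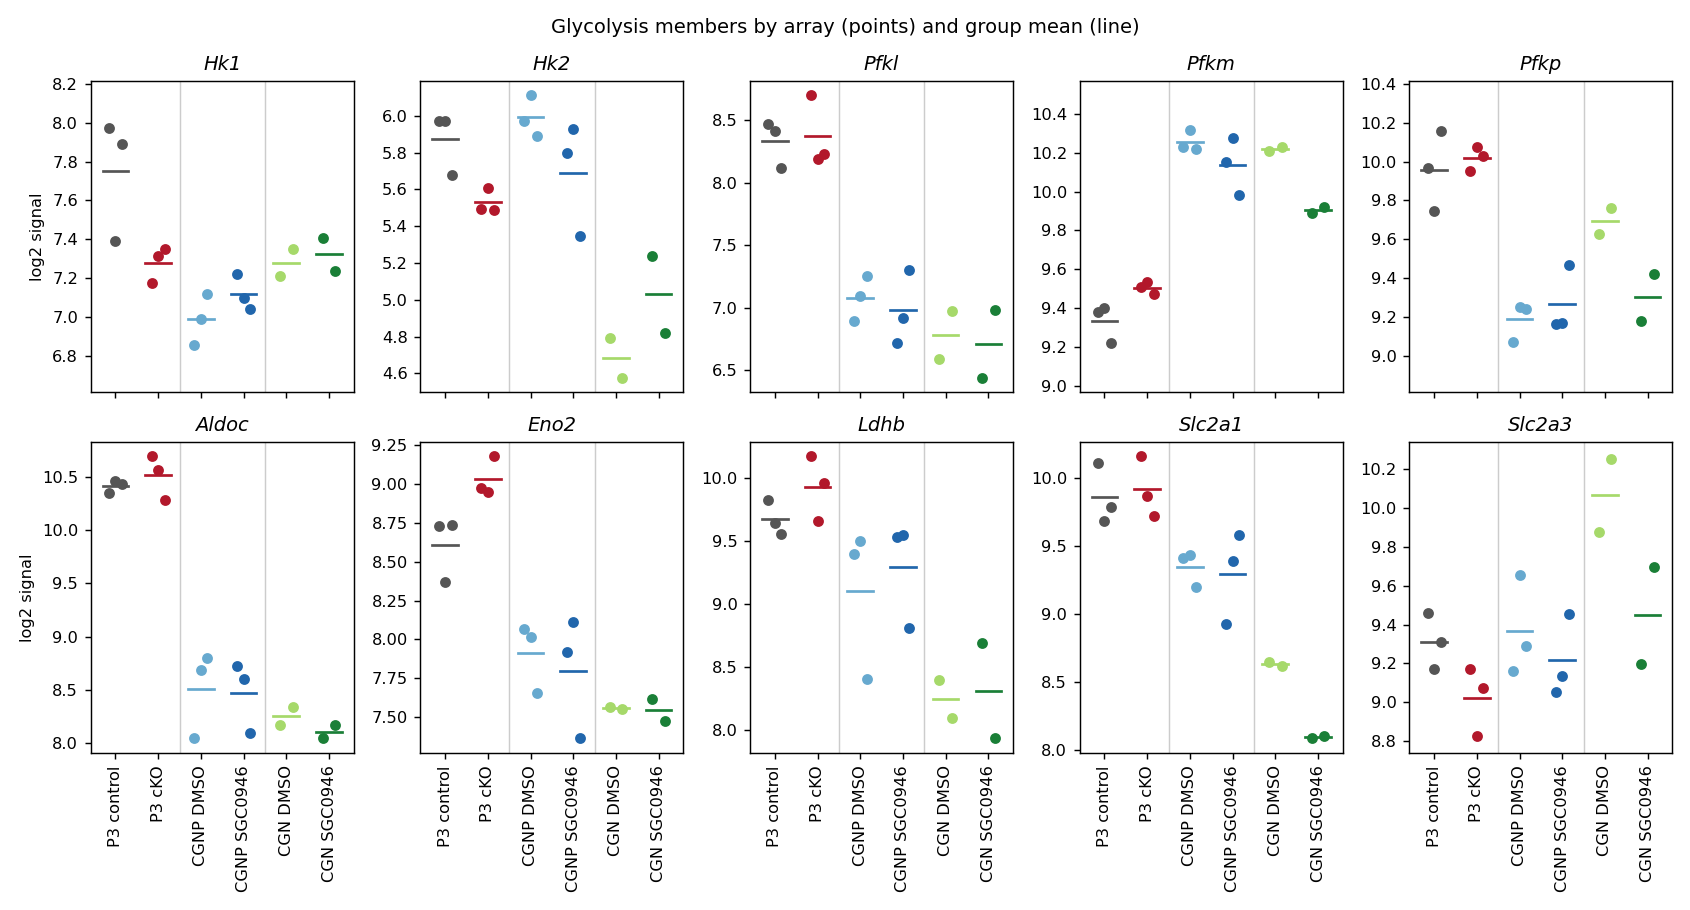
Log2 signal of each member in every array (points) with the mean of its group (line). The vertical axis differs between panels, grey lines separate the 3 experiments, and replicates stand from left to right. Hk2 and Slc2a1 sit lowest in CGN, and Slc2a3 sits highest in CGN with DMSO.

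The first comparison set neurons beside progenitors, with each treatment arm on its own. The members divided: Hk2, Ldhb and Slc2a1 lay lower in CGN, and Hk1, Pfkp and Slc2a3 lay higher, in both arms and under each of 3 scalings. The other 4 members had no direction that held across scalings. Both alternative scalings raised every member in each arm, so they could not turn those that were higher as deposited. With SGC0946, Pfkp and Slc2a3 overlapped between the cultures and turned when 1 array was left out. How many of all genes kept their direction was not counted. All 22180 genes had a median of -0.225 log2 units in CGN minus CGNP in each arm, and the members had medians of -0.278 with DMSO and -0.259 with SGC0946. A gene was called apart when its group means differed by at least 1 log2 unit and its arrays did not overlap. With DMSO, 11.2% of all genes were apart and lower and 2.75% apart and higher, and 1 member, Hk2, was apart. With SGC0946 these shares were 11.1% and 2.02%, and 1 member, Slc2a1, was apart. Neither share of members stands out from its background. Joint quantile normalization of the 10 arrays evened out the background, to 4.85% lower and 4.63% higher with DMSO. There 3 members were apart, Hk2 on the lower side and Pfkp and Slc2a3 on the higher side. With SGC0946 it gave 4.70% lower and 3.86% higher, and no member apart. Arrays of the 2 kinds did not overlap for 64.6% of all genes with DMSO and 59.0% with SGC0946. No test was made, since the 2 kinds of culture were normalized apart. By the labels CGNP had been 1 day in vitro and CGN 2 to 7 days, and 1 CGN culture with SGC0946 came from a P9 animal. Cell type, medium, treatment time and these labelled days differ together between the 2 kinds and cannot be told apart.

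Hk2 encodes the inducible hexokinase of growing cells and lies on chromosome 6. It read 5.97, 6.11 and 5.89 in CGNP with DMSO and 4.79 and 4.58 in CGN with DMSO. Every progenitor culture exceeded both neuron cultures, and the means differed by -1.31 log2 units, or 2.48-fold. The CGN readings lay near the medians of those arrays, 4.65 in both, so the size of the fold is uncertain. With SGC0946 the CGNP cultures read 5.80, 5.93 and 5.35 and the CGN cultures 5.24 and 4.82. The groups again did not overlap, with a smaller distance of -0.66. Joint normalization gave -1.19 and -0.56. Hk1, the constitutive hexokinase of brain, lies on chromosome 10 and ran the other way: it read 6.86 to 7.12 in CGNP with DMSO and 7.21 and 7.35 in CGN with DMSO. The means differed by 0.29 with DMSO and 0.20 with SGC0946, and by 0.67 and 0.64 after joint normalization, with no overlap in either arm.

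The glucose transporters also diverged. Slc2a1, on chromosome 4, read 9.41, 9.44 and 9.20 in CGNP with DMSO and 8.65 and 8.62 in CGN with DMSO. With SGC0946 it read 8.93, 9.39 and 9.58 in CGNP and 8.09 and 8.11 in CGN. All neuron cultures lay under all progenitor cultures of their arm, with differences of -0.72 with DMSO and -1.20 with SGC0946. The distance shrank to -0.20 and -0.67 after joint normalization, and the second, dim Slc2a1 cluster differed by -0.52 and -0.49. Slc2a3, on chromosome 6, read 9.16, 9.65 and 9.29 in CGNP with DMSO and 9.88 and 10.26 in CGN with DMSO. Here the neurons were above the progenitors without overlap, by 0.70, or 1.62-fold. With SGC0946 the groups overlapped, at 9.05 to 9.46 in CGNP and 9.20 and 9.70 in CGN, and the difference of 0.23 turned to -0.02 when 1 array was left out. Joint normalization gave 1.26 and 0.78.

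Of the 3 phosphofructokinase subunits, which assemble into tetramers of mixed make-up, only Pfkp had a direction that held under all scalings. The alternative scalings raised every member, so for Pfkp this was no test. Pfkp is the platelet form and is also abundant in brain. It lies on chromosome 13 and read 9.07 to 9.25 in CGNP with DMSO and 9.62 and 9.76 in CGN with DMSO, a difference of 0.50 without overlap. With SGC0946 the means differed by 0.03, the groups overlapped, and leaving out 1 array gave values from -0.09 to 0.16. After joint normalization Pfkp differed by 1.07 with DMSO, enough to count as apart, and by 0.57 with SGC0946. Pfkm, the muscle form, on chromosome 15, read 10.22 to 10.32 in CGNP and 10.21 and 10.23 in CGN with DMSO. Its difference of -0.04 became 0.55 after joint normalization. Pfkl, the liver form, on chromosome 10, went from -0.30 to 0.03 in the same way.

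Ldhb encodes the lactate dehydrogenase subunit known to favour use of lactate, and lies on chromosome 6. In CGNP with DMSO it read 9.40 in the pooled culture, 9.50 in mouse 29 and 8.40 in mouse 30, and in CGN with DMSO 8.39 and 8.09. The mouse 30 culture thus read like the higher neuron culture, well under the other progenitor cultures. It was also the lowest of the 3 with SGC0946, at 8.81 compared with 9.53 and 9.55. CGN minus CGNP was -0.86 with DMSO and -0.99 with SGC0946, where the CGN cultures read 8.69 and 7.93, and shrank to -0.34 and -0.46 after joint normalization. Eno2, the neuronal enolase, on chromosome 6, was likewise lowest in mouse 30 under both treatments, at 7.65 with DMSO and 7.36 with SGC0946, and its CGN arrays read 7.47 to 7.62. Eno2 differed by -0.36 and -0.25 as deposited but by 0.09 and 0.23 after joint normalization. Aldoc, on chromosome 11, an aldolase of brain known from astrocytes and Purkinje cells, differed by -0.26 and -0.37 as deposited and by 0.25 and 0.16 after joint normalization.

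**Figure D2:**
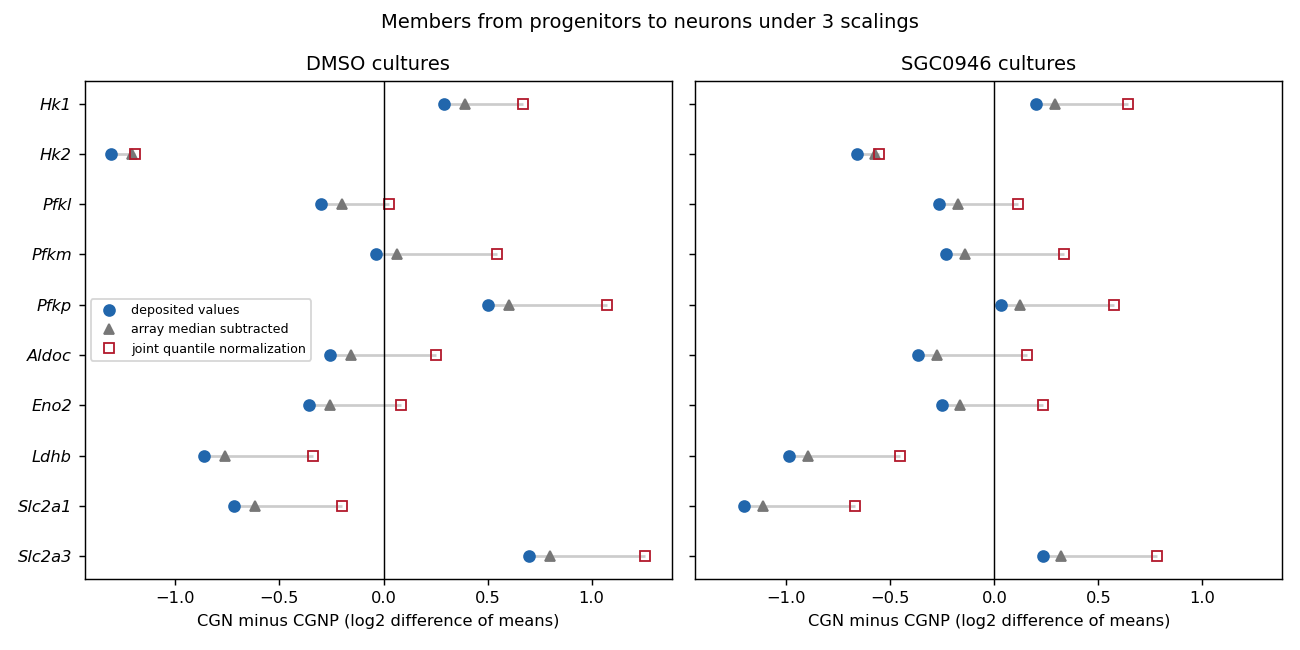
Difference of the group means, CGN minus CGNP, for each member with DMSO and with SGC0946, as log2 units. Circles are deposited values, triangles values with each array's median subtracted, and squares values after joint quantile normalization. Hk2, Ldhb and Slc2a1 stay left of 0 and Hk1, Pfkp and Slc2a3 right of 0, while Pfkl, Pfkm, Aldoc and Eno2 cross it.

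Of 13 other measured enzymes of the pathway, 9 had a lower mean in CGN in each arm, no larger a share than the 73.9% of all genes with DMSO and 74.2% with SGC0946. Their medians were -0.65 and -0.90. Bpgm had the largest difference of the 13 with DMSO, at -1.49, and -1.17 with SGC0946. Joint normalization gave -1.05 and -0.70. Pgk1, phosphoglycerate kinase, differed by -1.29 with DMSO and -1.23 with SGC0946, and by -0.71 and -0.69 after joint normalization. Pkm, the pyruvate kinase of most tissues, differed by -1.31 and -1.54, and by -0.73 and -0.98 after joint normalization. The cluster of Ldha, whose subunit is known to favour lactate formation, ran the other way. With DMSO it read 5.75 to 6.25 in CGNP and 7.06 and 6.91 in CGN, a difference of 1.02, and with SGC0946 the difference was 0.23. The lactate and pyruvate carrier Slc16a7, or MCT2, known from neurons, was 1.78 and 1.72 higher in CGN, and 2.07 and 2.10 higher after joint normalization. Pdk3, a kinase that holds back pyruvate dehydrogenase, differed by -1.30 and -1.93. Of the 12 hypoxia genes 7 had a lower mean in CGN with DMSO and 6 with SGC0946. The largest differences were in Ddit4, at -2.13 and -1.77, and Egln1, at -1.54 and -1.49.

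In cerebella, the question was whether loss of Dot1l in the granule lineage moved these genes. None of the 10 passed the test across all genes (limma, Benjamini-Hochberg adjusted p below 0.05), which only 5 genes or 0.0225% passed. Bulk arrays cannot tell fewer cells of a type from less RNA per cell. Before adjustment, 3 members had a p of at most 0.05, the study's own threshold, beside 8.69% of all genes. Hk1 and Slc2a3 were on the lower side, where 4.60% of genes lay, and Eno2 on the higher side, where 4.09% lay. The groups did not overlap for 5 members, 3 lower and 2 higher, beside 7.75% and 6.28% of all genes. The members' median was 0.06 log2 units and that of all genes -0.01.

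Both hexokinases read lower in cKO cerebella without passing the test. Hk1 read 7.97, 7.39 and 7.89 in the controls and 7.17, 7.32 and 7.35 in the cKO. Control 2 lay only just above the highest cKO animal. The difference was -0.47 (SE 0.180, limma adjusted p = 0.494), or 1.39-fold. Hk2 read 5.97, 5.97 and 5.68 in the controls and 5.49, 5.61 and 5.49 in the cKO, again without overlap. Its difference was -0.34 (SE 0.180, limma unadjusted p = 0.082, adjusted p = 0.623).

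Eno2 read 8.73, 8.37 and 8.73 in the controls and 8.97, 8.95 and 9.18 in the cKO. All cKO animals lay above all controls, with a difference of 0.42 (SE 0.139, limma adjusted p = 0.438). Slc2a3 read 9.46, 9.17 and 9.31 in the controls and 9.17, 8.83 and 9.07 in the cKO, where the lowest control and the highest cKO animal were equal to 2 decimals. Its difference was -0.29 (SE 0.131, limma adjusted p = 0.571), and -0.19 without the second cKO animal. Pfkm read 9.22 to 9.40 in the controls and 9.47 to 9.53 in the cKO, a difference of 0.17 (limma adjusted p = 0.702). The 95% interval of Pfkm spanned 0, as did that of Hk2 and those of the other 5 members. Differences of these 5 were 0.04 for Pfkl, 0.06 for Pfkp and Slc2a1, 0.10 for Aldoc and 0.26 for Ldhb. The Ldhb interval ran from -0.05 to 0.56.

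The 9 progenitor markers were all lower in the cKO (median -0.36, none past the test), with a summed linear signal of 7900 to 8730 compared with 10300 to 10900 in the controls. The 9 microglia markers measured were all higher (median 0.45, none past the test), at 1270 to 1590 compared with 985 to 1120. Of 10 muscle markers 9 were higher and 2 passed the test, at 585 to 812 compared with 238 to 264. The 12 astroglia markers gave 23800 to 24500 in the controls and 24200 to 26700 in the cKO. The part of these cell types in the members' values was not tested.

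Of 37 other pathway and transporter genes, 4 had an unadjusted p of at most 0.05, beside 8.69% of all genes. All 4 were higher in the cKO, beside 4.09% of all genes on that side, and none passed the adjusted test. Eno3, the muscle enolase, differed by 0.81 (SE 0.235, limma adjusted p = 0.393), and Pdk4, another pyruvate dehydrogenase kinase, by 0.69. Slc2a6, a transporter of myeloid cells, differed by 0.52, and Pfkfb3, which makes the activator of phosphofructokinase, by 0.49. Of the 12 hypoxia genes 2 were at that level, beside the same shares of all genes, Ndrg1 at 0.48 and P4ha2 at 0.35.

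**Figure D3:**
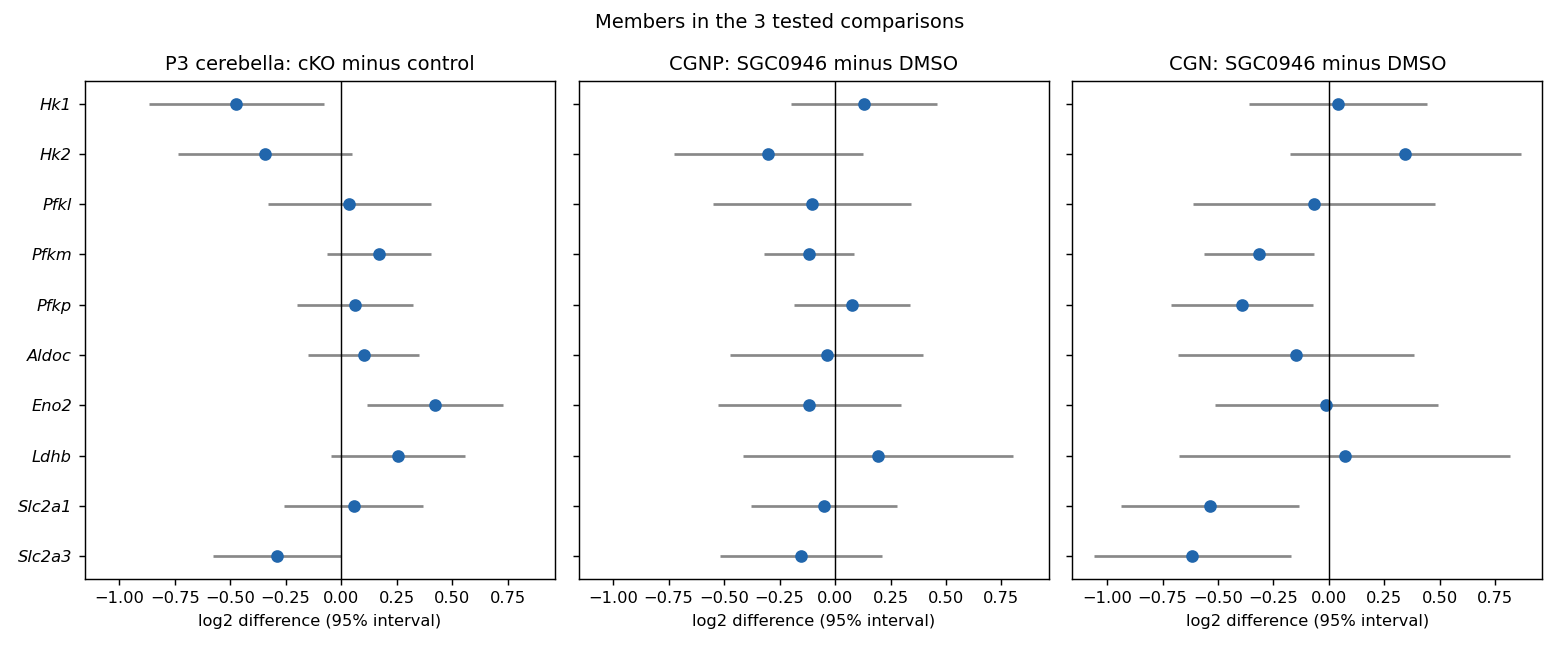
Log2 difference of each member (point) with its 95% interval (line) from limma in cKO minus control cerebella (3 against 3 animals), SGC0946 minus DMSO in CGNP (3 against 3 cultures) and in CGN (2 against 2 cultures). Intervals are not adjusted for the number of genes. Those of Pfkm, Pfkp, Slc2a1 and Slc2a3 lie below 0 in CGN, and all 10 span 0 in CGNP.

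In CGNP, 4 h of SGC0946 left no member at an unadjusted p of at most 0.05, a level that 4.08% of all genes reached. By limma 7 genes or 0.0316% passed the adjusted test, none of them a member. No member's groups were free of overlap, against 9.78% of all genes. Member differences ran from -0.30 for Hk2 to 0.20 for Ldhb. Treatment was compared within each culture as well. Hk2 was lower with SGC0946 in all 3, with differences of -0.17 in the pooled culture, -0.18 in mouse 29 and -0.55 in mouse 30. The overall Hk2 difference had a 95% interval from -0.73 to 0.12. Pfkm was lower in all 3 as well, with differences of -0.08, -0.04 and -0.24. Ldhb was higher in all 3, by 0.13, 0.05 and 0.41. How many of all genes kept 1 direction in all 3 cultures was not counted. Aldoc went in opposite directions, by 0.67 in the pooled culture, -0.08 in mouse 29 and -0.71 in mouse 30. Slc2a1 did so too, by -0.49, -0.05 and 0.38.

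Of the 37 other genes 1 was at that level on each side. Pfkfb4, of the same family as Pfkfb3, differed by 0.47 (SE 0.203). Pdha1, a subunit of the pyruvate dehydrogenase complex, differed by -1.04 (SE 0.328, limma adjusted p = 1). The Pdha1 value came from mouse 29, from 9.80 to 8.90, and mouse 30, from 10.35 to 8.15, while the pooled culture read 10.07 and 10.05.

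In CGN, the arrays with SGC0946 read lower for both transporters and for the phosphofructokinase subunits Pfkm and Pfkp. These 4 members had an unadjusted p of at most 0.05, a level that 7.48% of all genes reached and 4.08% on the lower side, but no member was among the 34 genes or 0.153% that passed the adjusted test. For the same 4 members no array assigned to SGC0946 reached the DMSO arrays, and for Hk2 both lay above them. The 2 arrays left out for contradictory labels read 10.24 and 10.39 for Pfkm, above both DMSO arrays. They read 9.97 and 9.67 for Pfkp, neither below the DMSO arrays. For Slc2a1, at 8.44 and 8.16, both read below the DMSO arrays. Slc2a3 was split, at 10.30 and 9.54. Which of these 2 arrays had SGC0946 is not settled. With 2 arrays a group, 34.1% of all genes did not overlap, 17.1% lower and 17.0% higher. The members' median was -0.11 and that of all genes -0.01.

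Slc2a3 read 9.88 and 10.26 with DMSO and 9.20 and 9.70 with SGC0946. The difference was -0.62 (SE 0.208, limma adjusted p = 0.435), or 1.54-fold. It ranged from -0.87 without the second SGC0946 array to -0.37 without the first. Slc2a1 read 8.65 and 8.62 with DMSO and 8.09 and 8.11 with SGC0946. The replicates had SDs of 0.02 and 0.01, and the difference was -0.54 (SE 0.187, limma adjusted p = 0.475), or 1.45-fold. The second Slc2a1 cluster, which read 4.10 on average with DMSO, differed by 0.02. Pfkp read 9.62 and 9.76 with DMSO and 9.18 and 9.42 with SGC0946, a difference of -0.39 (SE 0.150, limma adjusted p = 0.538). Pfkm read 10.21 and 10.23 with DMSO and 9.89 and 9.92 with SGC0946, a difference of -0.31 (SE 0.116, limma adjusted p = 0.514).

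Hk2 read 4.79 and 4.58 with DMSO and 5.24 and 4.82 with SGC0946. These are near the array medians, the groups were barely separated, and the difference of 0.34 had a 95% interval from -0.18 to 0.87. Without the first SGC0946 array it was 0.13 and without the second 0.56. The remaining members differed by -0.15 for Aldoc, -0.07 for Pfkl, -0.01 for Eno2, 0.04 for Hk1 and 0.07 for Ldhb. The Ldhb interval was the widest of these, from -0.67 to 0.82. Leaving out the second DMSO array or the first SGC0946 array left 1 member at an unadjusted p of at most 0.05, and leaving out either other array left 4. The CGN with DMSO entered both this comparison and that of CGN with CGNP, so the high Slc2a3 there counts in both.

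Of 13 other enzymes of glycolysis, 11 had a lower mean with SGC0946 in CGN, beside 51.3% of all genes. For 7 the arrays were lower without overlap, beside the 17.1% above. On that side 4 had an unadjusted p of at most 0.05, beside 4.08% of all genes, and none passed the adjusted test. The list median was -0.19. All 6 measured enzymes of the steps shared by most cells, from Tpi1 to Ldha, were on the lower side, with a median of -0.26. Ldha read 7.06 and 6.91 with DMSO and 6.48 and 6.03 with SGC0946, a difference of -0.73 (SE 0.245, limma adjusted p = 0.435). The Ldha cluster was dim beside Gapdh, at 11.21 to 11.80 in these CGN, and spanned 5.53 to 7.08 among the control cerebella. The 2 arrays with contradictory labels read 7.09 and 7.07 for Ldha. Eno3 differed by -0.67 (SE 0.248), Gapdh, the reference gene of many assays, by -0.30 (SE 0.114) and Tpi1, triose phosphate isomerase, by -0.27 (SE 0.098). Pgk1 differed by -0.03 (SE 0.087).

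Among genes of pyruvate and lactate use, 1 of 12 was at an unadjusted p of at most 0.05, beside 7.48% of all genes, Pdk4 at -0.57. Of 8 other transporters 1 was, Slc2a13, a carrier of myo-inositol, at -0.57. The phosphofructokinase regulators leaned the other way, with 3 of 4 higher and Pfkfb4 at 0.50 (SE 0.249). Of the hypoxia genes 6 were higher and 6 lower. Ddit4, an inhibitor of mTORC1 signalling that also responds to other stress, read 7.20 and 7.17 with DMSO and 8.12 and 7.80 with SGC0946, a difference of 0.78 (SE 0.168, limma adjusted p = 0.106). Of 12 astroglia markers 9 were lower (median -0.25, none past the test), with a summed linear signal of 7470 and 12500 with DMSO and 7330 and 8250 with SGC0946. The 9 progenitor markers gave 1450 and 1530 with DMSO and 1590 and 1800 with SGC0946, with 7 of 9 higher, 5 of them without overlap, and none past the test. The 10 granule neuron markers gave 14700 and 15100 with DMSO and 11800 and 15000 with SGC0946, with 6 lower and none past the test. The part of these markers' cells in the members' values was not tested.

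Whether the response to SGC0946 differed between CGN and CGNP was tested as an interaction. No gene passed the adjusted test by limma, while 1210 genes or 5.46% had an unadjusted p of at most 0.05. Of the members only Pfkp was at that level, with a CGN response that differed by -0.47 from that of CGNP (SE 0.193, limma adjusted p = 0.883). Hk2 had the largest value, 0.65 (SE 0.313, limma unadjusted p = 0.0586), being lower with SGC0946 in CGNP and higher in CGN. The values were -0.49 (SE 0.242) for Slc2a1 and -0.47 (SE 0.268) for Slc2a3. A difference between the cultures in their response was therefore not shown for any member, and 4 h and 44 h of treatment are not matched.

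**Figure D4:**
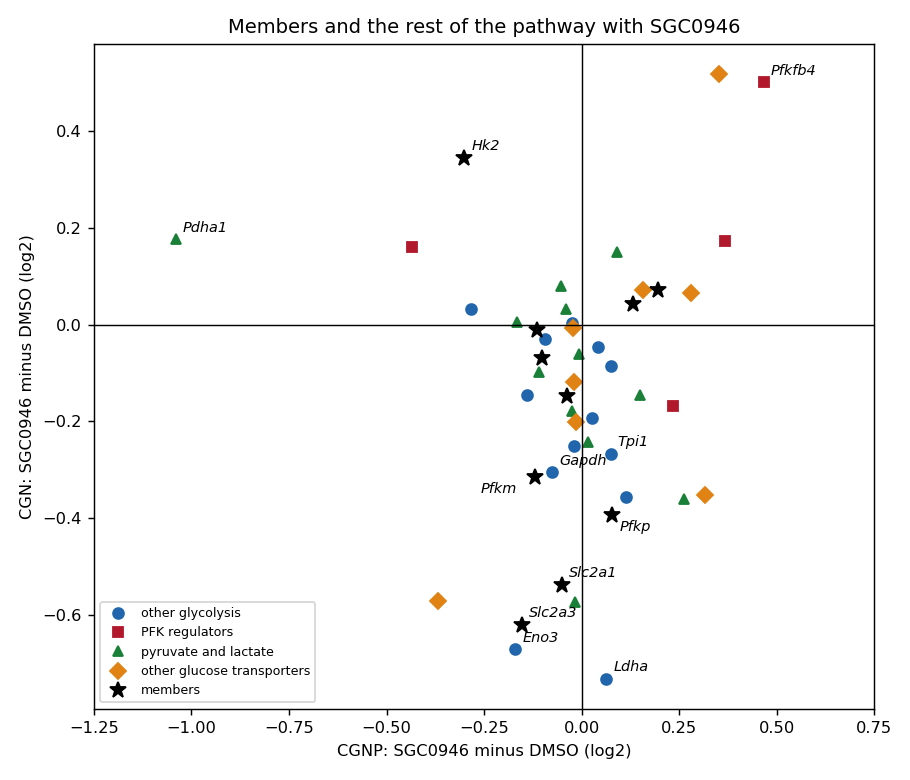
Log2 difference with SGC0946 in CGNP (horizontal) and in CGN (vertical) for the members (stars) and 37 other genes of glycolysis, its regulation, pyruvate and lactate use and glucose transport. Each point is 1 gene, without its error. Ldha, Eno3 and Slc2a3 lie lowest on the vertical axis, and Pdha1 stands apart at the left.

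The level of the members in whole P3 cerebellum beside CGNP was described in the same way, with control animals and DMSO cultures. On the deposited scale 13.3% of genes were apart and higher in cerebellum and 2.26% apart and lower, and 2 members were apart and higher, Aldoc and Pfkl. Joint normalization gave 8.74% higher and 4.63% lower, with Aldoc apart and higher and Pfkm apart and lower. Aldoc read 10.35, 10.46 and 10.43 in cerebellum and 8.05, 8.69 and 8.80 in CGNP, 3.73-fold apart. Pfkl read 8.47, 8.42 and 8.11 in cerebellum and 6.89, 7.10 and 7.25 in CGNP. Pfkm ran the other way, at 9.38, 9.40 and 9.22 in cerebellum and 10.23, 10.32 and 10.22 in CGNP. It differed by -0.92 as deposited and by -1.03 after joint normalization, whereas Pfkl moved from 1.25 to 0.85. Hk2 and Slc2a3 overlapped between cerebellum and CGNP, at -0.12 and -0.06. The direction was the same under the 3 scalings for all 10 members, but leaving out 1 array turned Slc2a3. Both alternative scalings lowered every member here, so those lower in cerebellum as deposited could not turn. The summed astroglia signal was 23800 to 24500 in cerebellum and 8790 to 9670 in these CGNP, and that of 10 endothelial markers 2270 to 2820 and 242 to 325. Strain, age and cell make-up differ between the 2 sources and cannot be told apart.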

How the data were processed

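Arrays of 6 cerebella, 6 CGNP and 4 CGN cultures were compared. The 2 CGN arrays with contradictory labels were read but entered no comparison. The authors deposited log2 signals per transcript cluster. Per the labels they were made in Partek by RMA background correction with adjustment for GC content and probe sequence, quantile normalization and median polish, with versions not given in the sources used here. Normalization within each experiment leaves levels across experiments open to shifts. The platform annotation gave 1 symbol for 23521 of the 34472 clusters, several for 1820 and no symbol for 9131. Where a gene had more than 1 cluster (1082 of 22180 genes), the brightest was used, and dim genes were not filtered out. The authors' 8 comparison columns hold fold changes and p-values and were not used.

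Tests were made in R 4.3.3 by lmFit and eBayes (trend on) of limma 3.58.1, with 1 fit for cerebella and another for the 10 culture arrays, after a check on simulated data. Adjusted p-values are Benjamini-Hochberg over all genes. CGN against CGNP, and cerebella against CGNP, were described without a test. The number of arrays limits precision. The CGNP cultures are paired through their mice, although the correlations of same-culture deviations were only 0.01, 0.04 and 0.01. Nothing in the labels ties animals or CGN cultures into pairs. The labels do not say that all replicates came from separate animals, so p-values measure only the spread between these samples. The labelled dose of 5 mM conflicts with the methods.

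The members and lists (127 of 144 genes measured) were chosen with earlier results of these data known. All members are named. Of the pathway lists only some genes are named, and these are not in every comparison the ones with the largest difference. Tpi1, Pgk1 and others of them were chosen after their values were seen. The comparison of cerebella with CGNP was added after seeing the data. Genes left without a single-symbol cluster, such as Aldoa, were not analysed here. Alternatives were joint quantile normalization, array medians subtracted, dim genes filtered, all clusters averaged, no intensity trend, ordinary variance, the replicate block and each array left out. Figures were drawn with matplotlib 3.10.9.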

Additional observations from a re-analysis of the deposited data

How the results depend on the processing

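No member passed the adjusted test under any alternative run. Of the genes past the adjusted test, the cKO count was 9 with a mean of at least 5, 3 without the intensity trend and 0 with ordinary variance. The CGNP count was 11 with joint quantile normalization, 13 with a mean of at least 5, 1 without the trend, 0 with ordinary variance and 16 from the 6 CGNP arrays alone. The replicate block on those 6 arrays gave 10 genes and no member, and changed no call of a member. The CGN count was 56 with joint normalization, 61 with a mean of at least 5 and 0 with ordinary variance, which also left 2 members below that level before adjustment. The interaction gave 1 gene with joint normalization, and 2 members at that unadjusted level without the trend. In CGN minus CGNP, joint normalization put 3 members apart with DMSO, beside 1076 genes apart and lower and 1028 apart and higher, and 0 members and 1899 genes with SGC0946. Averaging all clusters of a gene also gave 0 there, because the dim second cluster of Slc2a1 entered. Direction turned for cKO Slc2a1 with all clusters averaged (-0.026) and, with joint normalization, for Pfkl (0.0030) and Eno2 (0.047) in CGN.

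Leaving out each array in turn gave 1 to 12 genes past the adjusted test for cKO, 0 to 7 for CGNP, 12 to 257 for CGN (257 without the second SGC0946 array) and 0 to 39 for the interaction. Members at a p of at most 0.05 before adjustment numbered 1 to 3 for cKO, 1 to 4 for CGN and 0 to 3 for the interaction. Members apart in CGN minus CGNP numbered 1 to 2 in each arm. Uncalled members near 0 changed sign. For cKO, Pfkl ranged from -0.13 to 0.13, Pfkp from -0.043 to 0.16 and Slc2a1 from -0.066 to 0.18. For CGNP, Pfkl ranged from -0.26 to 0.029, Pfkp from -0.022 to 0.13, Aldoc from -0.27 to 0.15, Eno2 from -0.27 to 0.10, Ldhb from -0.15 to 0.44 and Slc2a1 from -0.19 to 0.14. For CGN, Hk1 ranged from -0.041 to 0.13, Pfkl from -0.34 to 0.20, Eno2 from -0.084 to 0.059 and Ldhb from -0.31 to 0.45. In the interaction, Pfkl ranged from -0.24 to 0.30, Aldoc from -0.30 to 0.12, Eno2 from -0.11 to 0.26 and Ldhb from -0.51 to 0.26. The cause of these shifts was not tested. The median SE of a gene, 0.14 in cerebella and CGNP and 0.18 in CGN, limits what a group of 2 or 3 arrays can show, and where a group was left with 1 array, that array was assumed to vary like the others.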

Other observations

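The 2 CGN arrays with contradictory treatment labels read as follows, given as the array whose title comes first by number and then the other. Slc2a3 read 10.30 and 9.54, Slc2a1 8.44 and 8.16, Pfkp 9.97 and 9.67, and Pfkm 10.24 and 10.39. Hk2 read 4.90 and 5.04, Hk1 7.43 and 7.24, and Pfkl 6.36 and 6.65. Aldoc read 8.01 and 7.91, Eno2 7.64 and 7.52, and Ldhb 8.71 and 8.93.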
